A study of Mus musculus with 18 samples.

Results

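The 5 YAP target genes described here are Cyr61, Ctgf, Ankrd1, Amotl2 and Axl. They were chosen by name as commonly read targets of the transcriptional coactivator YAP, and make up 5 of 15194 genes in the joined tables of a mouse RNA sequencing study. The cells were 3T3-L1, a mouse fibroblast line that can be driven to become adipocytes in culture. Undifferentiated, untreated cells (J0) and differentiated cells (J7) were sequenced, each as control (CTL), MLKL-/- and RIPK3-/- cells. MLKL and RIPK3 are the membrane-permeabilising pseudokinase and the kinase of necroptosis, a form of regulated cell death. The 6 groups, J0_CTL, J0_MLKL, J0_RIPK3, J7_CTL, J7_MLKL and J7_RIPK3, hold 3 libraries each. The labels do not say how the knockouts were made, whether a line is 1 clone, or whether replicate libraries come from different cultures. The p-values therefore reflect spread between the sequenced samples alone, which may be technical. Titles name the groups here, as they do the tables' columns. The genotype entry of the 6 J7 knockout samples contradicts the title by giving the other gene. J7_MLKL and J7_RIPK3 below mean the libraries so titled.

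The Hippo pathway is a kinase cascade in which STK3 and STK4 activate LATS1 and LATS2, which phosphorylate YAP and its relative TAZ (Wwtr1) and hold them in the cytoplasm. When the cascade is quiet, as in spread cells on stiff matrix, YAP and TAZ enter the nucleus and bind TEAD factors, which carry them to DNA. In preadipocytes YAP and TAZ are known for favouring the fibroblastic state, and TAZ represses the adipogenic receptor PPARG. Cyr61 and Ctgf encode secreted matrix proteins of the CCN family, Axl a receptor tyrosine kinase, Amotl2 an angiomotin of cell junctions that itself binds YAP, and Ankrd1 an ankyrin-repeat protein of muscle nuclei and sarcomeres.

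TEAD factors recognise the letters GGAATG, which read CATTCC on the other strand. The 250 bases before the RefSeq start site were searched on both strands for GGAATG and for TGANTCA, the motif of AP-1 factors, which often bind beside TEAD. The 2 motifs can overlap by the letters TG and were counted separately. The table of promoters matched 4 of the 5 members, Cyr61 (as Ccn1), Ankrd1, Amotl2 and Axl. GGAATG was present in 4 of these 4, beside 12.6% of all 32851 promoters searched (4153), and TGANTCA in 0 of 4, beside 6.75% (2217). The 4 sequences are shown because they hold the letters that TEAD factors are known to bind. They run 5′ to 3′ on the gene's strand, from RefSeq on GRCm38.p6 (the build mm10), and capitals mark GGAATG or CATTCC.
Cyr61, chr3:145649986-145650235, minus strand: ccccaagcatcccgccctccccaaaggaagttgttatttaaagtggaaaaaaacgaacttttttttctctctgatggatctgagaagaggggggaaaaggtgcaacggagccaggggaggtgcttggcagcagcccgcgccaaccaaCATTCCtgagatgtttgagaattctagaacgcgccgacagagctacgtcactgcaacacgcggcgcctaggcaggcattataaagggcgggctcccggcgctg
Ankrd1, chr19:36119845-36120094, minus strand: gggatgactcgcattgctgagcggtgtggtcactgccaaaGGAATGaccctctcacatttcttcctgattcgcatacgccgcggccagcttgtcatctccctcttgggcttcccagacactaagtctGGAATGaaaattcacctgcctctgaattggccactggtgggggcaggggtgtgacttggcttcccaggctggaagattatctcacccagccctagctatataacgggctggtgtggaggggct
Amotl2, chr9:102717554-102717803, plus strand: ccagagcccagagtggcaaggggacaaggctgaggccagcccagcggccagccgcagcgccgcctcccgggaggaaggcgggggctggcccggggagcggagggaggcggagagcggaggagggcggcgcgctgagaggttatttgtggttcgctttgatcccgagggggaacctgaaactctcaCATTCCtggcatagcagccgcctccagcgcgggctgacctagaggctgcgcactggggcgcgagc
Axl, chr7:25788734-25788983, minus strand: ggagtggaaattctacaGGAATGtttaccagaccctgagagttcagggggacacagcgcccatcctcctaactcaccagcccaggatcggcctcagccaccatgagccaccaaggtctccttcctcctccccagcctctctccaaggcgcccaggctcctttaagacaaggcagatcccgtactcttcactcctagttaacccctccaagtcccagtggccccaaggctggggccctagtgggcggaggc

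Counted from the start site, the first base of the match lay at -103 in Cyr61 and at -65 in Amotl2, both as CATTCC. In Ankrd1 there were 2 matches, at -210 and -123, and in Axl 1 match at -233, all as GGAATG. A match describes letters in the window and no measured binding. The RefSeq start of Amotl2 lies inside the gene's span as the deposited files give it.

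Per library, 20.2 to 36.9 M reads were recovered as totals. The deposited tables list only genes that the authors called in a comparison, and hold 90.0 to 98.4% of all reads in the CTL and RIPK3 groups, 29.3 to 30.4% of those of J0_MLKL and 53.5 to 54.5% of those of J7_MLKL. Every share of called genes below comes from such preselected genes. Library 2 of J0_MLKL (mean correlation with its group mates over 2802 genes 0.992, its mates 0.995) and library 3 of J7_MLKL (0.970, its mates 0.984) stood apart, against 0.998 in each of the other 12 libraries. Mlkl itself was at 18.2 to 19.8 CPM, the count scaled to a common library total, in J0_CTL, 7.19 to 9.72 in J0_MLKL and 14.5 to 17.7 in J0_RIPK3. Its J7 ranges were 25.4 to 27.5 CPM in J7_CTL, 13.9 to 16.4 in J7_MLKL and 26.5 to 32.3 in J7_RIPK3. Ripk3 was at 16.8 to 19.6 CPM in J0_CTL, 5.73 to 9.44 in J0_MLKL and 14.7 to 17.3 in J0_RIPK3, and at 17.5 to 19.2, 7.73 to 11.99 and 10.2 to 11.7 CPM in J7_CTL, J7_MLKL and J7_RIPK3. Mlkl was thus lowest in the libraries titled MLKL at both times. Ripk3 was lowest in J0_MLKL, overlapped between J0_RIPK3 and J0_CTL, and overlapped between the knockout groups at J7, so its levels do not follow the RIPK3 titles, and group names here stand for labels.

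The 5 members had counts in all 18 libraries, over a wide range of level. On the FPKM scale, which divides by gene length and library total, Axl stood highest in J0_CTL at 61.0 ± 0.836 (SD, n = 3), followed by Amotl2 at 20.04 ± 0.818 and Cyr61 at 14.8 ± 0.774. Ankrd1 and Ctgf were far below, at 0.415 ± 0.136 and 0.118 ± 0.0117 FPKM, and rested on 63 and 30 reads over the 3 libraries. The order changed in J7_MLKL, where Cyr61 led with 110.8 ± 5.63 FPKM before Axl at 42.1 ± 6.84 and Amotl2 at 41.8 ± 9.38, these last within their spread of each other.

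**Figure D1:**
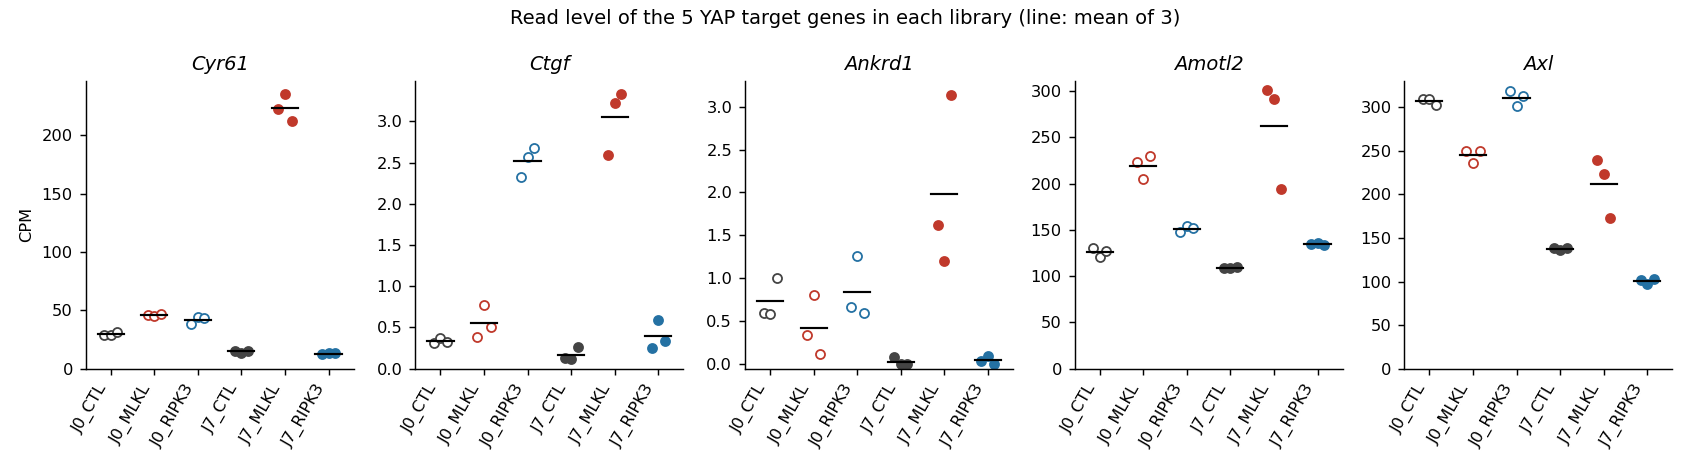
Level of each YAP target gene in CPM (linear axis, counts scaled to a common library total) in the 18 libraries. Each point is 1 library, open for J0 and filled for J7, and the line is the mean of 3. Cyr61 in J7_MLKL, between 213 and 235 CPM, lies above every other library, and Ankrd1 is near 0 in J7_CTL and J7_RIPK3.

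Differentiation of control cells was accompanied by lower levels of the target genes. Of the 4 members tested in J7_CTL against J0_CTL, 4 were called lower and 0 higher (edgeR quasi-likelihood test, adjusted p under 0.05), where 95.9% of all genes tested were called. RIPK3 cells gave the same direction, with 5 of 5 members lower in J7_RIPK3 than in J0_RIPK3 (97.8% of all genes called). In MLKL cells the pattern differed: 3 of 5 members were higher in J7_MLKL than in J0_MLKL and 0 were lower (66.7% of all genes called). Shares as near to the background as those of CTL and RIPK3 cells say little about the members as a set, and the sizes and directions below are the description.

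Against control cells at J0, 3 of 5 members were called in J0_MLKL, 2 higher and 1 lower (83.6% of all genes called), and 3 of 5 in J0_RIPK3, all higher (55.8%). At J7, 5 of 5 were higher in J7_MLKL than in J7_CTL (94.9%), while in J7_RIPK3 1 of 3 tested was higher and 1 lower (59.1%). Between the knockouts, J0_MLKL against J0_RIPK3 gave 1 higher and 2 lower of 5 (66.5%), and J7_MLKL against J7_RIPK3 gave 5 higher of 5 (86.8%). J7_CTL serves as the control of both J7 comparisons and J0_CTL of both at J0, so these are not independent.

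The test of whether a knockout's change from J0 to J7 differed from that of CTL called 4 of 5 members for MLKL, all with a positive difference (65.3% of all genes called), and 3 of 5 for RIPK3, all negative (39%). These counts follow the titles. Read by the genotype entries, the J7 knockout libraries change places. The first test then called 2 of 5 members, 0 positive and 2 negative, and the second called 5 of 5, 5 positive and 0 negative. Shares of all genes called under that reading are not given here. Comparisons within J0, and J7_MLKL libraries against J7_CTL libraries as such, do not depend on that reading.

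**Figure D2:**
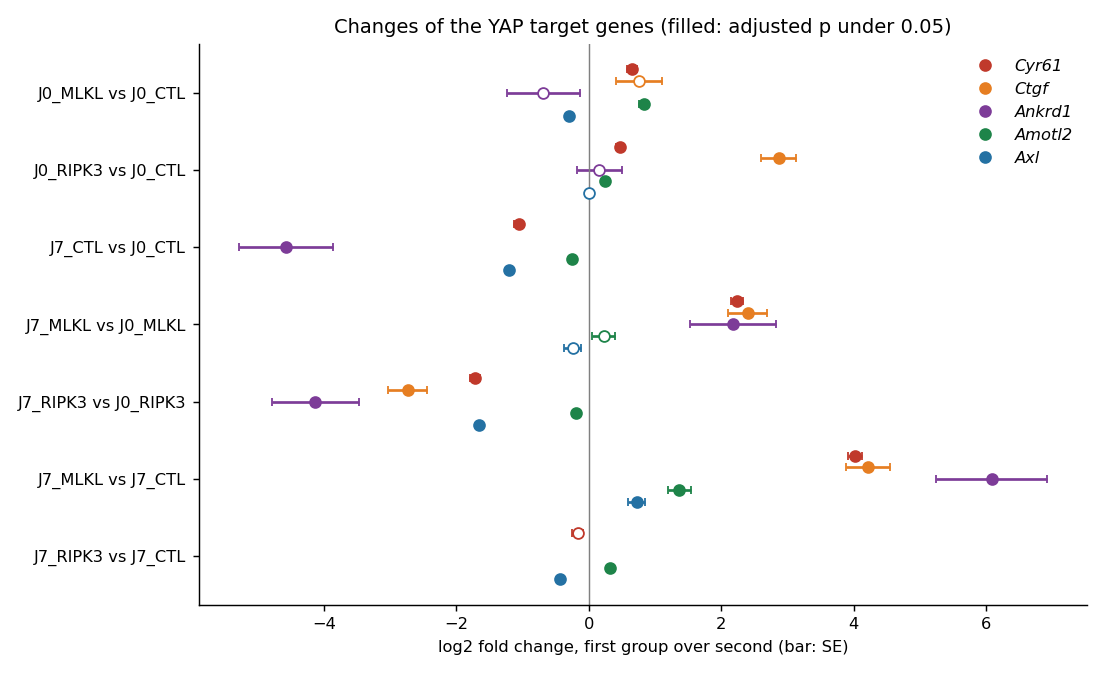
Log2 fold change of each YAP target gene, first-named group over second, for the 7 pairs of groups with a deposited table. Bars are SE, filled points have an adjusted p under 0.05, and members that were not tested are not drawn (Ctgf in both J7_CTL comparisons with J0_CTL and J7_RIPK3, Ankrd1 in the latter). Cyr61, Ctgf and Ankrd1 lie right of 0 in J7_MLKL against J0_MLKL and left of it in J7_RIPK3 against J0_RIPK3.

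Among the secreted members, Cyr61 (CCN1), a matrix protein that binds integrins, was far above Ctgf per length in every group (ENSMUSG00000028195, chromosome 3, 145646976 to 145649981, minus strand, mm10, protein-coding). Its CPM in libraries 1, 2 and 3 was 28.9, 29.2 and 31.8 for J0_CTL, 45.8, 45.6 and 47.2 for J0_MLKL, and 38.1, 44.5 and 43.6 for J0_RIPK3. Differentiated cells had 15.2, 13.9 and 15.3 CPM as J7_CTL, 223, 235 and 213 as J7_MLKL, and 12.4, 13.1 and 13.6 as J7_RIPK3. The J7_MLKL libraries stood above the other 15, and no neighbours overlapped in the order J7_MLKL, J0_MLKL, J0_RIPK3, J0_CTL, J7_CTL, J7_RIPK3.

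Cyr61 fell 2.01-fold from J0_CTL to J7_CTL (log2 fold change -1.06, SE 0.07, edgeR adjusted p 2.69e-13) and 3.24-fold from J0_RIPK3 to J7_RIPK3 (-1.72, SE 0.08, edgeR adjusted p 2.26e-15). From J0_MLKL to J7_MLKL it rose 4.83-fold (log2 2.24, SE 0.09, edgeR adjusted p 4.38e-05), which put J7_MLKL 15.04-fold above J7_CTL (log2 4.02, SE 0.10, edgeR adjusted p 4.65e-06). The change in MLKL cells exceeded that in CTL by 3.26 on the log2 scale (SE 0.10, edgeR adjusted p 5.66e-10). At J0 Cyr61 was higher than in CTL in both knockouts, 1.55-fold in J0_MLKL (edgeR adjusted p 0.000137) and 1.42-fold in J0_RIPK3 (4.46e-07), and at J7 the value of J7_RIPK3 over J7_CTL was -0.17 on the log2 scale (SE 0.08, edgeR adjusted p 0.0899). J0_MLKL over J0_RIPK3 was 0.17 (edgeR adjusted p 0.0816), a difference that was called once library 2 of J0_MLKL was left out (0.18, edgeR adjusted p 0.00434).

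If the J7 knockout libraries are paired with J0 by their genotype entries, the Cyr61 change becomes -1.68 on the log2 scale for the cells named MLKL and 2.42 for those named RIPK3. The level of the 3 J7_MLKL libraries is unaffected by that choice.

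Ctgf (CCN2), the connective tissue growth factor that promotes matrix production, is the classic partner of Cyr61 as a YAP readout, but was read here at very low level (ENSMUSG00000019997, chromosome 10, 24595442 to 24598683, plus strand, mm10, protein-coding). Raw reads in libraries 1, 2 and 3 were 11, 11 and 8 for J0_CTL, 9, 22 and 13 for J0_MLKL, and 59, 59 and 99 for J0_RIPK3. The J7_CTL libraries had 3, 3 and 7 reads, those of J7_MLKL 67, 70 and 88, and those of J7_RIPK3 6, 12 and 9. J7_MLKL (2.59 to 3.33 CPM) and J0_RIPK3 (2.32 to 2.68 CPM) overlapped each other and lay above all other groups, the highest library of which had 0.775 CPM.

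Ctgf thus differed from Cyr61 at J0, where the RIPK3 cells and not the MLKL cells carried the high level. In J0_RIPK3 it was 7.52-fold above J0_CTL (log2 2.87, SE 0.26, edgeR adjusted p 2.93e-09) and above J0_MLKL as well (J0_MLKL over J0_RIPK3 -2.11, SE 0.26, edgeR adjusted p 0.000269). J0_MLKL over J0_CTL was 0.76 (SE 0.35, edgeR adjusted p 0.0713), and was called without library 1 of J0_MLKL (0.95, edgeR adjusted p 0.0439). From J0_RIPK3 to J7_RIPK3 Ctgf fell 6.66-fold (log2 -2.74, SE 0.29, edgeR adjusted p 1.48e-08).

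In MLKL cells Ctgf moved in the opposite direction, 5.35-fold up from J0_MLKL to J7_MLKL (log2 2.40, SE 0.30, edgeR adjusted p 0.000916) and 17.7-fold above J7_CTL (log2 4.22, SE 0.33, edgeR adjusted p 6.67e-05). The change in MLKL cells exceeded that in CTL by 3.36 (SE 0.49, edgeR adjusted p 8.94e-05), and that in RIPK3 cells was more negative than in CTL by -1.72 (SE 0.65, edgeR adjusted p 0.0354). The latter call was lost without library 1 or 3 of J7_RIPK3 (edgeR adjusted p 0.0812 and 0.0631), library 3 of J0_RIPK3 (0.0593) or J7_CTL (0.261), or library 1 or 3 of J0_CTL (0.0630 and 0.0549). With 13 reads in J7_CTL, 30 in J0_CTL and 27 in J7_RIPK3, Ctgf did not pass the count filter for J7_CTL against J0_CTL or J7_RIPK3 against J7_CTL, so neither difference was tested. Every J7_CTL library (0.122 to 0.261 CPM) lay below every J0_CTL library (0.316 to 0.377 CPM), and J7_RIPK3 (0.25 to 0.594 CPM) overlapped with J7_CTL. By genotype entry the change would be -0.40 for MLKL and 0.28 for RIPK3.

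The other CCN genes in the tables, Nov (CCN3), Wisp1 (CCN4) and Wisp2 (CCN5), encode secreted proteins of the same modular build, and Wisp2 is a Wnt-induced factor made by adipose precursor cells. All 3 fell in J7_CTL and in J7_RIPK3 against their J0 groups, with log2 values of -2.63 and -3.59 for Nov, -1.22 and -2.27 for Wisp1 and -1.37 and -1.85 for Wisp2 (largest edgeR adjusted p 4.10e-11). In J7_MLKL against J7_CTL all 5 CCN genes tested were higher (94.9% of all genes called), with a list median of 3.50 beside 0.17 over all genes tested. Nov stood at 3.50, Wisp1 at 2.00 and Wisp2 at 2.82 there. From J0_MLKL to J7_MLKL, however, only Cyr61 and Ctgf of 4 tested rose (66.7% of all genes called). Wisp1 was at -0.53 (edgeR adjusted p 0.118) and Wisp2 at 0.45 (0.202), while Nov has no J0_MLKL counts in the tables used. Wisp3 is not analysed here.

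**Figure D3:**
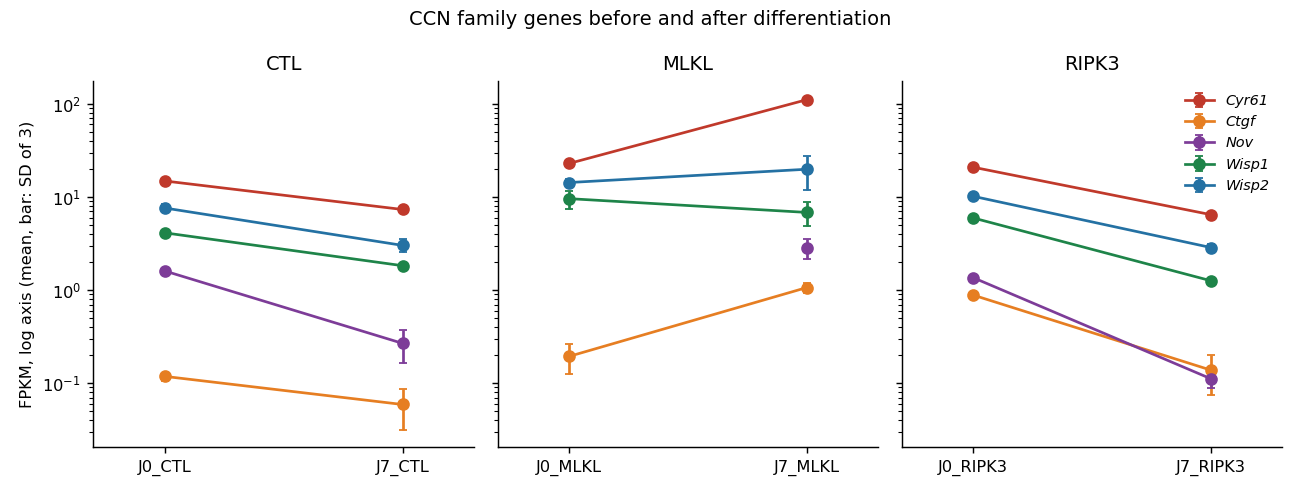
Mean FPKM (log axis, bar SD of 3 libraries) of the 5 CCN family genes at J0 and J7 in control, MLKL and RIPK3 cells by title. All 5 lines slope down in the CTL and RIPK3 panels, where the Ctgf change in CTL was not tested, and Cyr61 and Ctgf slope up in the MLKL panel, as does Wisp2, which was not called there. Nov has no J0_MLKL point.

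Integrins are the receptors through which CCN proteins act on cells. From J0_CTL to J7_CTL 5 of 6 tested fell (95.9% of all genes called), with Itgb5 at -1.89, Itgav at -1.85 and Itgb3 at -1.47 on the log2 scale. Itga6, the laminin receptor subunit of mature adipocytes, rose from 27.7 ± 1.48 to 730 ± 24.4 CPM (SD, n = 3). J7_MLKL against J7_CTL gave 4 higher and 1 lower of 6 (94.9% of all genes called), with Itgb5 at 1.81, Itgb1 at 1.47, Itgav at 1.05 and Itga6 at -3.95 (43.9 ± 11.95 CPM). Without library 3 of J7_MLKL, which stood apart, 5 were higher and 1 lower. Within MLKL cells, from J0_MLKL to J7_MLKL, 0 were higher and 3 lower of 4 tested (66.7% of all genes called, median -1.02 beside 0.03 over all genes tested). Itgb5 fell there from 523 ± 69.9 to 224 ± 44.0 CPM (SD, n = 3; log2 -1.25, edgeR adjusted p 0.00133), Itgb3 was at -1.16 and Itgb2 at -0.89, while Cyr61 and Ctgf rose.

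Axl, the receptor for the bridging ligand Gas6 that drives survival signalling and clearance of dying cells, had the deepest counts (ENSMUSG00000002602, chromosome 7, 25757273 to 25788705, minus strand, mm10, protein-coding). Libraries 1, 2 and 3 of J0_CTL gave 310.1, 309 and 302 CPM, those of J0_MLKL 249.9, 236 and 249.8, and those of J0_RIPK3 319, 301 and 313. After differentiation J7_CTL gave 139, 136 and 139 CPM, J7_MLKL 239, 223 and 173, and J7_RIPK3 102, 97.5 and 103. J0_CTL and J0_RIPK3 overlapped at the top, J0_MLKL and J7_MLKL overlapped below them, and J7_CTL and J7_RIPK3 were separate and lowest.

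Axl fell 2.23-fold from J0_CTL to J7_CTL (log2 -1.20, SE 0.03, edgeR adjusted p 2.73e-21) and 3.09-fold from J0_RIPK3 to J7_RIPK3 (-1.65, SE 0.04, edgeR adjusted p 4.68e-20). In MLKL cells the value was -0.25 (SE 0.13, edgeR adjusted p 0.133), and -0.18 with a call (0.00375) when library 2 of J0_MLKL and library 3 of J7_MLKL were both left out. The MLKL change stood above that of CTL by 0.91 (SE 0.14, edgeR adjusted p 0.000115) and the RIPK3 change below it by -0.43 (SE 0.05, edgeR adjusted p 3.01e-08). Over the scalings tried, the MLKL difference of Axl ran from 0.59 to 0.95. The median of all genes tested was 0.30 in that contrast, and -0.01 with DESeq2 size factors. By genotype entry the Axl change of the cells named MLKL would be -1.14 (edgeR adjusted p 1.78e-07). Its difference from the CTL change would then be -0.16 (edgeR adjusted p 0.0557), and that of the cells named RIPK3 0.69 (0.000519). Axl was the one member called lower in J0_MLKL than in J0_CTL (1.26-fold, log2 -0.29, edgeR adjusted p 0.00176). In J0_RIPK3 its difference from J0_CTL was -0.00 on the log2 scale (SE 0.03, edgeR adjusted p 0.938), positive at 0.02 or less under 2 other scalings.

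At J7 the knockouts lay on opposite sides of control cells for Axl. J7_MLKL was 1.53-fold above J7_CTL (log2 0.72, SE 0.13, edgeR adjusted p 0.00215) and 0.82 above it on the log2 scale without library 3, the lowest of its group. J7_RIPK3 was 1.36-fold below J7_CTL (log2 -0.44, SE 0.04, edgeR adjusted p 3.02e-09).

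Among the other TAM genes, Tyro3 is a receptor related to Axl, and Gas6 and Pros1 encode the ligands that bridge these receptors to exposed phosphatidylserine. From J0_CTL to J7_CTL 4 of 5 TAM genes fell (95.9% of all genes called), with log2 values of -2.58 for Pros1, -2.40 for Tyro3 and -1.12 for Gas6. Mertk, the third receptor, was at 0.17 (edgeR adjusted p 0.0501). In J7_MLKL against J7_CTL 4 of 4 TAM genes tested were higher (94.9% of all genes called), Pros1 by 1.66 and Gas6 by 1.32. Gas6 was at 881 ± 117 CPM there, beside 378 ± 23.1 in J7_CTL and 215 ± 15.4 in J7_RIPK3 (SD, n = 3). In J0_MLKL against J0_CTL 3 of 3 were lower (83.6% of all genes called), Axl among them, with Pros1 at -0.72 and Tyro3 at -0.37.

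Amotl2, the junctional scaffold that binds YAP and activates LATS kinases and so is both a target and a restraint of YAP, varied least of the 5 (ENSMUSG00000032531, chromosome 9, 102716672 to 102733418, plus strand, mm10, protein-coding). Libraries 1, 2 and 3 of J0_CTL had 130.5, 120.4 and 127 CPM, J0_MLKL 224, 205 and 229, and J0_RIPK3 148, 154 and 152. J7_CTL had 109, 108 and 110.2 CPM, J7_MLKL 301, 292 and 195, and J7_RIPK3 135, 136 and 134. All libraries of both MLKL groups lay above all RIPK3 and CTL libraries, and library 3 of J7_MLKL lay under those of J0_MLKL.

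Both knockouts had more Amotl2 than control cells at J0 and at J7. J0_MLKL was 1.73-fold above J0_CTL (log2 0.83, SE 0.07, edgeR adjusted p 2.97e-05) and J0_RIPK3 1.201-fold (0.24, SE 0.03, edgeR adjusted p 1.87e-06). At J7 the folds were 2.39 in J7_MLKL (log2 1.37, SE 0.17, edgeR adjusted p 0.000449; 1.51 without library 3) and 1.23 in J7_RIPK3 (0.32, SE 0.04, edgeR adjusted p 1.60e-07). The fall from J0 to J7 was small, -0.25 in CTL (edgeR adjusted p 2.16e-07) and -0.20 in RIPK3 cells (3.37e-05).

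From J0_MLKL to J7_MLKL the Amotl2 value was 0.22 (SE 0.17, edgeR adjusted p 0.292), and its difference from the CTL change was 0.43 (SE 0.19, edgeR adjusted p 0.0616). Both depended on library 3 of J7_MLKL: without it they were 0.39 (edgeR adjusted p 0.00434) and 0.60 (1.99e-05). The second also depended on the scale, from 0.47 with library totals alone (edgeR adjusted p 0.0474) to 0.11 with DESeq2 size factors (0.620). By genotype entry the changes would be -0.56 for MLKL and 0.80 for RIPK3.

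Of the other angiomotins, Amot had the direction of Amotl2 in both comparisons below, with larger values, and Amotl1 the opposite one. Amot, which holds YAP at junctions and actin, fell from 193 ± 1.14 to 13.8 ± 1.07 CPM (SD, n = 3) between J0_CTL and J7_CTL (log2 -3.86, SE 0.05, edgeR adjusted p 3.58e-28), and stood 2.40 above J7_CTL on the log2 scale in J7_MLKL (SE 0.35, edgeR adjusted p 0.000846). Amotl1 went the other way, 0.66 higher in J7_CTL than in J0_CTL and -0.81 in J7_MLKL against J7_CTL (edgeR adjusted p 0.0472).

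Ankrd1 (CARP), a cofactor of cardiac and skeletal muscle that also responds to stretch in fibroblasts, was near the limit of detection in differentiated cells (ENSMUSG00000024803, chromosome 19, 36111965 to 36119844, minus strand, mm10, protein-coding). Libraries 1, 2 and 3 of J0_CTL held 21, 17 and 25 reads, those of J0_MLKL 8, 23 and 3, and those of J0_RIPK3 17, 29 and 22. J7_CTL held 2, 0 and 0 reads, J7_MLKL 42, 26 and 83, and J7_RIPK3 1, 2 and 0. The J7_CTL and J7_RIPK3 libraries were separate from and below all others, J7_MLKL overlapped with J0_RIPK3 only, and J0_MLKL libraries spread widely.

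The ratio of pooled levels was 26.8-fold lower in J7_CTL than in J0_CTL (exact 95% counting interval 7.13 to 226, 2 reads against 63, edgeR adjusted p 2.00e-06). In J7_RIPK3 it was 18.8-fold lower than in J0_RIPK3 (6.16 to 93.3, 3 reads against 68, edgeR adjusted p 5.47e-06). These intervals cover counting error only, and the fitted value for CTL ran from -7.35 to -4.02 on the log2 scale as single libraries were left out, the first without library 1 of J7_CTL, which holds both reads. J7_RIPK3 against J7_CTL, 3 reads against 2, gave no usable ratio.

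In MLKL cells Ankrd1 rose 4.65-fold from J0_MLKL to J7_MLKL (log2 2.18, SE 0.65, edgeR adjusted p 0.0218), a call that was lost without library 1 or 3 of J0_MLKL (edgeR adjusted p 0.0755 and 0.0524) and reached 3.05 without library 2. Against J7_CTL the ratio was 77.1 (counting interval 21.0 to 642, edgeR adjusted p 0.000642), with a fitted value that moved from 6.09 to 8.68 without library 1 of J7_CTL. The difference of the MLKL change from the CTL change was 6.71 (SE 1.17, edgeR adjusted p 0.00035), and it rests on the 2 reads of J7_CTL. At J0 no difference from CTL was called, with -0.69 in J0_MLKL (SE 0.55, edgeR adjusted p 0.270; -1.61 and 0.00625 without library 2) and 0.15 in J0_RIPK3 (SE 0.34, edgeR adjusted p 0.725). By genotype entry the change of the cells named RIPK3 would be 1.28. The related Ankrd2 has counts in CTL groups only in the tables used, at 0.377 ± 0.136 CPM in J0_CTL and 0.092 ± 0.0173 in J7_CTL, and Ankrd23 is not analysed here.

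The direct contrast of the differentiated knockout libraries, J7_MLKL over J7_RIPK3, had all 5 members higher. Cyr61 stood 17.1-fold higher (log2 4.27, edgeR adjusted p 2.59e-06), Ctgf 7.96-fold (3.13, 0.000171), Axl 2.09-fold (1.24, 0.000179) and Amotl2 1.93-fold (1.13, 0.000764). The Ankrd1 ratio was 48.0 (counting interval 16.1 to 236, edgeR adjusted p 0.00051). All 5 were also called without library 3 of J7_MLKL. Swapping the genotype names would turn the sign of these values and not their size.

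A list of 17 other genes commonly read as conserved YAP and TAZ targets was examined beside the members. In J7_CTL against J0_CTL 16 of 17 tested were called, 6 higher and 10 lower (95.9% of all genes called), with a median of -0.34 beside 0.03 over all genes tested. Nuak2, a kinase of the AMPK family that feeds back on YAP, was at -2.79 on the log2 scale, Rbms3, an RNA-binding protein, at -2.71, and Myof, the membrane-repair protein myoferlin, at -2.54. Nt5e, the ectoenzyme CD73, rose by 3.79, Igfbp3, a binding protein of insulin-like growth factors, by 1.90 and Ccdc80, a secreted protein of adipose tissue, by 1.34. J7_RIPK3 against J0_RIPK3 gave 4 higher and 10 lower of 15 (97.8% of all genes called), with the largest falls again in Nuak2 (-3.65), Rbms3 (-3.33) and Myof (-3.03).

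In J7_MLKL against J7_CTL 14 of 14 list genes tested were called, 10 higher and 4 lower (94.9% of all genes called). The median was 1.06 beside 0.17 over all genes, and the split was the same without library 3 of J7_MLKL. Nuak2 was at 2.86, Rbms3 at 2.58 and Myof at 2.05, in a comparison that shares the J7_CTL libraries with that of control cells over time. Igfbp3 at -2.85, Nt5e at -2.20, Dock5 at -0.71 and Ccdc80 at -0.45 were lower. Levels of the coagulation receptor F3 show the size: 187 ± 3.20 CPM in J7_CTL, 123 ± 4.33 in J7_RIPK3 and 587 ± 38.0 in J7_MLKL (SD, n = 3).

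The MLKL cells could be followed from J0 to J7 for only 7 of the 17 genes, since the others lacked J0_MLKL counts. Those 7 have such counts because the authors called them in a comparison that holds J0_MLKL, so they are a preselected set. Of these, 5 were higher and 1 lower (66.7% of all genes called). Igfbp3 rose by 2.17, the stress gene Gadd45a by 2.04 and F3 by 1.16, and Dock5, a Rac activator, was lower at -1.19. In the test against the CTL change 3 were positive and 1 negative of 7 (65.3% of all genes called), with a median of 0.23, under the 0.30 of all genes tested. That balance did not hold under other settings: 2 were positive and 3 negative with DESeq2 size factors (median -0.09), and 3 and 3 without both libraries that stood apart (0.09). J7_RIPK3 against J7_CTL had 2 higher and 11 lower of 16 (59.1% of all genes called, median -0.30 beside 0.00), with Igfbp3 at -2.72. At J0 the list was mixed. J0_MLKL had 1 higher (Tgfb2, 0.96) and 2 lower (Igfbp3, -3.19, and Foxf2, -0.57) of 7 (83.6% of all genes called). J0_RIPK3 had 6 higher and 5 lower of 15 (55.8%).

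**Figure D4:**
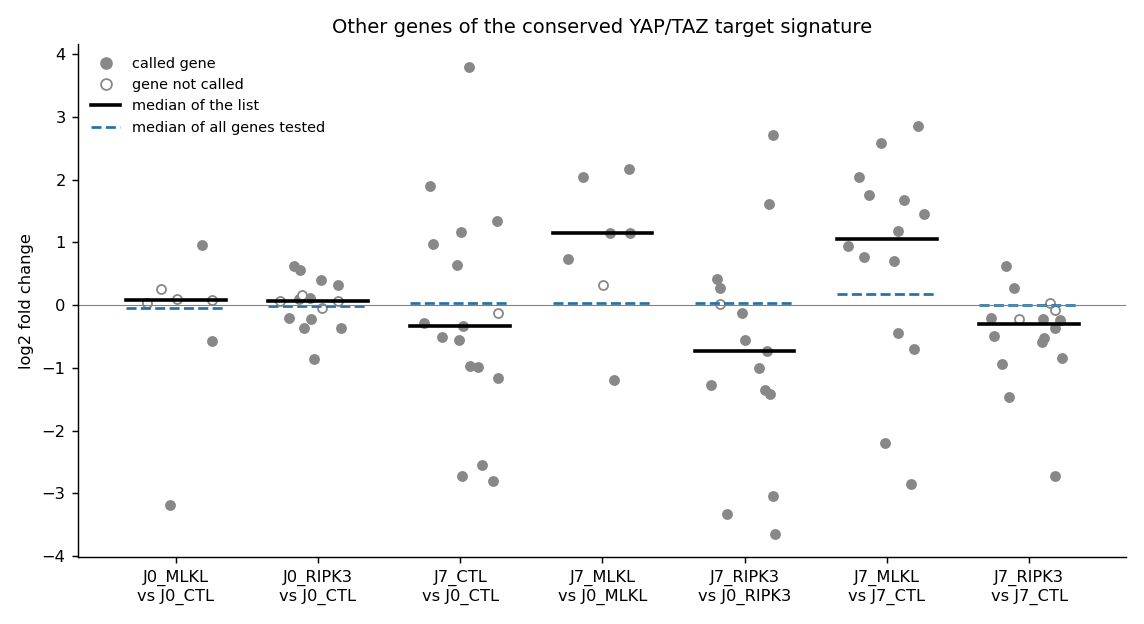
Log2 fold change of the other conserved YAP and TAZ target genes in 7 comparisons, 1 point per gene tested, filled where the adjusted p was under 0.05. The black line is the list median and the dashed line the median of all genes tested, and the list median is highest in the comparisons that hold J7_MLKL (1.16 and 1.06). Between 7 and 17 of the 17 genes were tested in a comparison.

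Upstream, Yap1 itself fell from 173 ± 1.88 to 111 ± 2.72 CPM (SD, n = 3) between J0_CTL and J7_CTL (log2 -0.69, edgeR adjusted p 3.13e-16) and by a similar size in RIPK3 cells (-0.71, 4.34e-14), while Wwtr1, which encodes TAZ, rose by 0.18 and 0.23. Neither has counts for MLKL libraries in the tables used. Of the TEAD factors, Tead2 was at -2.07, Tead3 at -1.51 and Tead4 at 1.80 in J7_CTL against J0_CTL, all called. In J7_MLKL against J7_CTL, which shares J7_CTL, they were called at 2.21, 1.44 and -1.35.

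Vgll3, a TEAD cofactor that competes with YAP for the same surface, had the widest range of the TEAD group. It was at 97.4 ± 3.70, 273 ± 22.1 and 127 ± 2.91 CPM in J0_CTL, J0_MLKL and J0_RIPK3, and at 7.43 ± 0.610, 484 ± 51.5 and 5.27 ± 0.804 CPM in J7_CTL, J7_MLKL and J7_RIPK3 (SD, n = 3). Its fall in control cells was -3.76 on the log2 scale (edgeR adjusted p 9.44e-26), its value in J7_MLKL over J7_CTL 6.13 (4.65e-06), and the change in MLKL cells exceeded that in CTL by 4.50 (5.97e-10). The order of its groups was that of Cyr61. These J7 values follow the titles. By genotype entry, the cells named MLKL would go from 273 CPM at J0 to 5.27 at J7, and those named RIPK3 from 127 to 484. The difference from the CTL change under that reading is not given here.

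Genes of the Hippo cascade and its regulators gave 9 higher and 3 lower of 12 in J7_MLKL against J7_CTL (94.9% of all genes called). Their median was 1.23 beside 0.17 over all genes tested. The large cadherins Fat4 and Dchs1 stood at 3.97 and 2.78, the LATS inhibitor Ajuba at 1.62 and the kinase gene Lats2, which is also counted among the target genes above, at 1.45. The lower ones were Mob1a, an activator of LATS, at -0.54, the kinase gene Stk4 at -0.51 and Nf2, the membrane scaffold merlin, at -0.43. In J7_CTL against J0_CTL 6 were higher and 13 lower of 20 (95.9% of all genes called), with Dchs1 at -4.07, Fat4 at -3.65 and Frmd6 at -2.13 falling most. From J0_MLKL to J7_MLKL 0 were higher and 3 lower of 7 (66.7% of all genes called), with Dchs1 at -1.57 and Ajuba at -0.75. Without both libraries that stood apart, 5 were lower. In the authors' deposited table of pathways, Hippo signaling held 79 listed genes for J7_MLKL against J7_CTL, 51 up and 28 down, with an adjusted p of 0.00924. For J0_MLKL against J0_CTL the authors' deposited table gave 43 genes, 28 up and 15 down, and an adjusted p of 0.0301, and for the other 5 comparisons adjusted p-values from 0.112 to 0.590. Of the 5 members only Ctgf belongs to that pathway's list there.

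Markers of the cells moved with the members at J7. The 10 adipocyte markers (10 of 10 with counts in all libraries) summed to 22684 to 23812 CPM in J7_CTL and 25020 to 27198 in J7_RIPK3, but to 3759, 4187 and 5900 CPM in libraries 1, 2 and 3 of J7_MLKL. At J0 the sums were 290.3 to 298 CPM in J0_CTL, 400.0 to 507 in J0_MLKL and 344 to 354 in J0_RIPK3, with Lep at 0 in all 3 groups and Adipoq at 0 in J0_CTL and J0_MLKL. Most of each J0 sum was Lpl, at 244, 434 and 277 CPM in J0_CTL, J0_MLKL and J0_RIPK3. Other markers were lower in J0_MLKL than in J0_CTL: Fabp4 at 1.26 against 6.05 CPM, Pparg at 20.5 against 26.5 and Cebpa at 11.4 against 16.9. Lower marker sums can come from fewer adipocytes or from less marker RNA per cell, which bulk libraries cannot tell apart.

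Preadipocyte markers (5 of 8 with counts in all libraries) went the other way. Their sums were 760 to 768 CPM in J7_CTL, 610.4 to 627 in J7_RIPK3 and 3697 to 3874 in J7_MLKL, beside 4004 to 4208 in J0_CTL, 5701 to 6395 in J0_MLKL and 4743 to 4917 in J0_RIPK3, and Dlk1 was at 0 in J7_CTL and J7_RIPK3. Most of this sum is Col1a1, the collagen gene, at 3699 ± 86.2 CPM in J7_MLKL and 3667 ± 93.6 in J0_CTL. The other markers of the sum in J7_MLKL lay between J7_CTL and J0_CTL or, for Cd34, at the level of J0_CTL. Thy1 was at 60.4, 24.1 and 261 CPM in J7_MLKL, J7_CTL and J0_CTL, Ly6a at 33.5, 13.5 and 120.6, Gata2 at 17.5, 3.19 and 31.1, and Cd34 at 1.26, 0.314 and 1.22 CPM. Pdgfra and Pdgfrb are outside the sum for lack of J0_MLKL counts, and their means in J7_MLKL lay above J0_CTL, with overlapping libraries. Pdgfra was at 1164 ± 476, 129 ± 3.99 and 631 ± 10.5 CPM in J7_MLKL, J7_CTL and J0_CTL, and Pdgfrb at 320 ± 45.3, 46.6 ± 0.627 and 271 ± 6.65 CPM (SD, n = 3). Myofibroblast markers (3 of 5, namely Acta2, Myl9 and Postn) summed to 219.8 to 231 CPM in J7_CTL, 149 to 169 in J7_RIPK3 and 2202 to 2356 in J7_MLKL, and to 1807 to 1861, 2803 to 3162 and 2545 to 2637 CPM in J0_CTL, J0_MLKL and J0_RIPK3. Most of this sum is Postn, at 1500 ± 253 CPM in J7_MLKL, 2616 ± 221 in J0_MLKL and 1649 ± 38.1 in J0_CTL (SD, n = 3). Acta2 went the other way, at 750 ± 328, 372 ± 70.6 and 175 ± 14.7 CPM in the same groups, and was highest in J7_MLKL. Myl9 was at 11.3 ± 7.46, 9.92 ± 3.34 and 4.28 ± 0.511 CPM there. The part of the cells' state in the members' levels at J7 was not tested. Beside the undifferentiated cells of the same title, Cyr61 was at 224 ± 11.4 CPM in J7_MLKL and 46.2 ± 0.897 in J0_MLKL, and Amotl2 at 263 ± 59.0 and 219.6 ± 12.6 CPM (SD, n = 3), the latter with overlapping libraries.

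**Figure D5:**
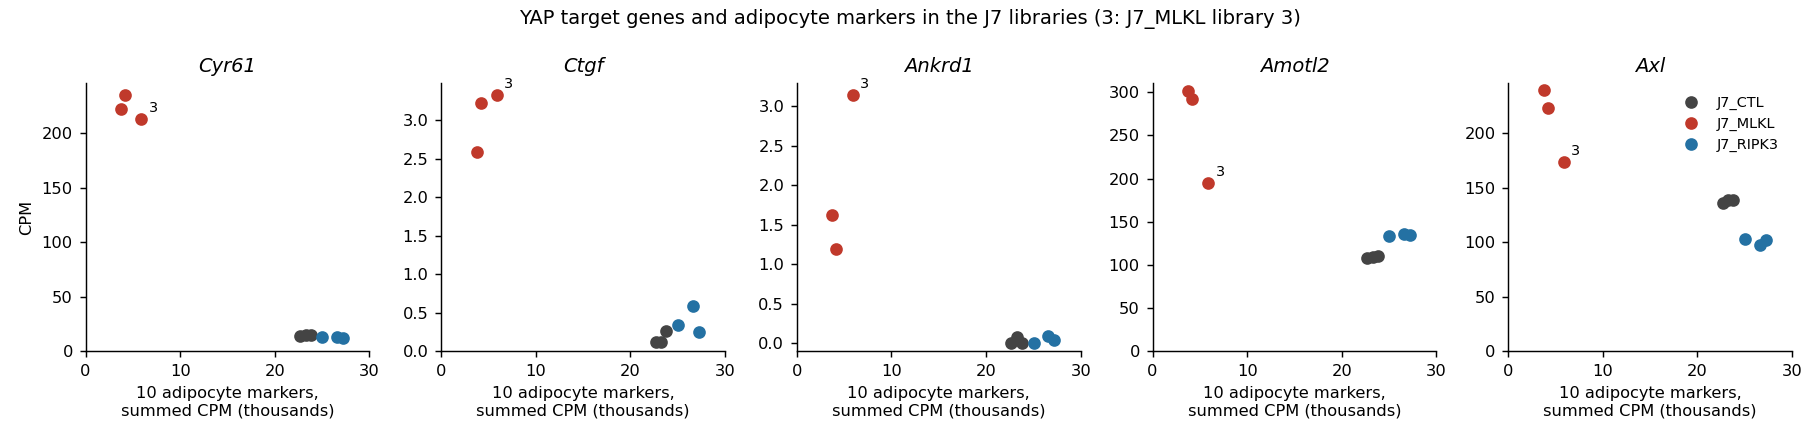
Level of each YAP target gene in CPM against the summed CPM of 10 adipocyte markers (linear axis) in the 9 J7 libraries, 1 point per library. The 3 J7_MLKL libraries, between 3759 and 5900 CPM of markers, lie at the upper left. Library 3, with the highest marker sum of its group, has its lowest Cyr61, Amotl2 and Axl and its highest Ctgf and Ankrd1.

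Ankrd1 is a muscle gene, and muscle markers were read for that reason. Acta1 and Des (2 of 8 with counts in all libraries) summed to 12.8, 12.8 and 29.9 CPM in J7_MLKL libraries 1, 2 and 3, of which library 3 also had the most Ankrd1 (3.14 CPM against 1.62 and 1.198), and to 36.7 to 39.6 CPM in J7_CTL, where Ankrd1 was at 0 to 0.0829 CPM. J7_RIPK3 had 55.6 to 59.97 CPM of the same markers, J0_CTL 8.39 to 10.02, J0_MLKL 13.8 to 20.9 and J0_RIPK3 5.47 to 6.04. Most of this sum is Des, at 14.7 ± 7.77, 34.2 ± 1.36 and 53.8 ± 1.58 CPM in J7_MLKL, J7_CTL and J7_RIPK3 (SD, n = 3). Acta1 was at 3.79 ± 2.19, 4.36 ± 0.230 and 3.87 ± 0.691 CPM in the same groups, with overlapping libraries. Tnnt2, the cardiac troponin T gene and the third muscle marker in the tables, was highest of the J7 groups in J7_MLKL, where Des was lowest. It was at 2.95 ± 0.312 CPM in J0_CTL, 4.52 ± 0.488 in J0_RIPK3, 0.439 ± 0.0877 in J7_CTL, 0.427 ± 0.0840 in J7_RIPK3 and 3.77 ± 1.97 in J7_MLKL (SD, n = 3), high and low in the same groups as Ankrd1, with no J0_MLKL counts in the tables used. The part of muscle-like expression in the Ankrd1 levels was not tested. Myod1, Myog, Ckm, Myh6 and Actc1 are not analysed here. Few markers of other cell types have J7_MLKL counts. Csf1r, the 1 of 5 macrophage markers counted there, was at 0.618 to 0.832 CPM, beside 0.249 to 0.325 in J7_CTL and 0.167 to 0.717 in J7_RIPK3. Cd68 and Lyz2 have no J7_MLKL counts in the tables used, so their level there is unknown. In J7_MLKL 3 of 5 epithelial markers summed to 0.875 to 2.46 CPM, beside 41.5 to 47.5 in J7_CTL. Pecam1, the 1 of 5 endothelial markers counted in J7_MLKL, was at 0.618 to 0.921 CPM, beside 1.62 to 2.07 in J7_CTL.

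Across the 18 libraries, which share 6 groups of 3, the members' log2(CPM + 1) profiles were compared by Pearson's r as a description. Cyr61 was most like Ankrd1 (0.855) and Amotl2 (0.844), and Axl least like the others, with r from 0.312 with Amotl2 to 0.517 with Ankrd1. Among 2494 protein-coding genes, the profiles nearest to Cyr61 were those of Maoa (0.979), Mcoln1 (0.972) and Clca3a1 (0.971). Nearest to Ctgf were Lum (0.927), Egr1 (0.871) and Wfdc18 (0.869), and to Ankrd1 Serpina3g (0.918), Dlgap4 (0.901) and Casp4 (0.897). Amotl2 lay nearest to Itga1 (0.970), Selenop (0.964) and Eya4 (0.961), and Axl to Cdk5rap2 (0.991), Fbn1 (0.990) and Ccnd1 (0.990). For Lum, the small leucine-rich proteoglycan of collagen matrix, the group means were 27.7, 33.7 and 54.4 CPM in J0_CTL, J0_MLKL and J0_RIPK3 and 13.9, 77.6 and 20.4 CPM in J7_CTL, J7_MLKL and J7_RIPK3, with J0_RIPK3 and J7_MLKL highest as in Ctgf. Ccnd1, the G1 cyclin, fell from 328 CPM in J0_CTL to 37.3 in J7_CTL and stood at 139 in J7_MLKL, the order of Axl.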

How the data were processed

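RNA was sequenced from 18 libraries of 3T3-L1 cells. The submitters' processing notes list mm10, HISAT2, FastQC 0.11.9, DESeq2 and featureCounts 1.5.0-p3, with no role or order. The authors deposited 7 comparison tables of the genes they called. They hold, per library, the raw read count, a normalised count (a signal: each deposited count over a size factor of its library in that table) and the authors' FPKM. They also hold the authors' log2 fold change, p-value and adjusted p-value. Gene ontology tables were not used, and 0 per-library columns were left unused.

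Counts were joined by gene identifier over the tables (0 of 88950 repeated counts differed). Library totals were recovered from count, FPKM and length, and CPM is a count over that total. Each of 9 pairs of groups was fitted with edgeR 4.0.16 in R 4.3.3 (filterByExpr, TMM factors on the totals, quasi-likelihood F test, Benjamini-Hochberg over all genes tested, threshold 0.05), and 2 interaction contrasts were fitted over 4 groups. Standard errors come from the F statistic. Folds are ratios of pooled reads over pooled totals. The script was tested on simulated data. Strand use in counting is not given in the sources used here, so antisense and overlapping reads cannot be separated.

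The 5 members, the gene lists and the tests were chosen with earlier results of these data known. Named genes are the members, up to 3 higher and 3 lower called genes per list and comparison by size, and the 3 protein-coding genes of mean CPM at least 1 nearest to each member by r. Yap1 and Ankrd2 were named outside this rule, and values of genes it names are also given for other comparisons, chosen after their values were seen. Marker genes were read by list, and single markers were named after their values were seen. Alternatives were DESeq2 1.42.0 (Wald test), other size factors, library totals alone, no count filter, a mean of at least 50 counts, a replicate block, single libraries left out, and the J7 knockout libraries read by their genotype entries.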

Additional observations from a re-analysis of the deposited data

Results flagged for a closer look

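In 7 cases the change of a YAP target gene from J0 to J7 in a knockout differed from that in control cells by a test of the difference itself (edgeR interaction contrast on the log2 scale). For MLKL cells the difference was 3.26 for Cyr61 (higher in 3 of 3 J7_MLKL libraries than in any J0_MLKL library), 3.36 for Ctgf, 6.71 for Ankrd1 and 0.91 for Axl, with edgeR adjusted p-values of 5.66e-10, 8.94e-05, 0.00035 and 0.000115. The Ankrd1 value rests on 2 reads in J7_CTL. That of Axl ran from 0.59 to 0.95 over the scalings tried, beside a median of 0.30 over all genes tested. For RIPK3 cells it was -0.64 for Cyr61, -1.72 for Ctgf and -0.43 for Axl (edgeR adjusted p 1.28e-05, 0.0354 and 3.01e-08). That Ctgf call rests on 13 reads in J7_CTL and 27 in J7_RIPK3. It was lost in several fits that left out a single library (edgeR adjusted p 0.261 without library 3 of J7_CTL). All 7 take the J7 knockout libraries by their titles.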

How the results depend on the processing

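Of 746 values recomputed for single members, 700 kept their direction and side of the threshold, 11 lost a call, 14 gained one and 21 changed sign, 13 of these when the J7 knockout libraries were read by genotype entry. That reading gave, for J7_MLKL against J0_MLKL, Cyr61 -1.68, Ctgf -0.40 and Amotl2 -0.56, with 3081 genes called in place of 2051. Axl kept its sign there but gained a call, at -1.14 in place of -0.25. For J7_RIPK3 against J0_RIPK3 it gave Cyr61 2.42, Ctgf 0.28, Ankrd1 1.28 and Amotl2 0.80, with 3 members and 2854 genes called in place of 5 and 11533. In the differences from the CTL change it gave, for MLKL, Cyr61 -0.84, Amotl2 -0.53 and Axl -0.16 (2 members called), and for RIPK3, Cyr61 3.52, Ctgf 1.32 and Axl 0.69 (5 called).

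A minimum mean of 50 counts removed the low genes Ctgf and Ankrd1 from tests and left 1 member called in J7_MLKL against J0_MLKL, 3 in J7_RIPK3 against J0_RIPK3, 3 in J7_MLKL against J7_CTL, 3 in J7_MLKL against J7_RIPK3 and 2 in the MLKL difference. Without both libraries that stood apart, 5 members were called in J7_MLKL against J0_MLKL, 4 higher and 1 lower, and the cause was not tested. With single libraries left out, 2 to 4 members were called in that comparison, 3 to 5 in J0_MLKL against J0_RIPK3 (5 without library 2 of J0_MLKL), 3 to 4 in J0_MLKL against J0_CTL, 4 to 5 in the MLKL difference and 2 to 3 in the RIPK3 difference. In the other 6 comparisons the count did not change. Shares of all genes called under these settings are not given here, so the counts show only how member calls moved. With single libraries left out, 1785 to 2284 genes were called in J7_MLKL against J0_MLKL, 1903 to 2708 in J0_MLKL against J0_RIPK3 and 3009 to 3419 in J0_MLKL against J0_CTL. The MLKL difference had 1868 to 2179 genes called and the RIPK3 difference 3982 to 4185.

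Values near 0 that were never called also changed sign. In J0_RIPK3 against J0_CTL, Axl was 0.018 with library totals alone, 0.013 with size factors of the authors, and -0.020 to 0.018 as libraries were left out, and Ankrd1 -0.21 without library 2 of J0_RIPK3 (range -0.21 to 0.42). For Ankrd1 the RIPK3 difference ran from -0.48 to 3.17 as libraries were left out, with -0.04 and -0.10 without library 2 or 3 of J7_CTL. Ankrd1 in J7_RIPK3 against J0_RIPK3 ran from -5.08 to -3.52, and in J7_MLKL against J7_RIPK3 from 4.93 to 6.46, the extremes without library 2 and library 3 of J7_RIPK3. The MLKL difference of Ankrd1 was 9.47 without library 1 of J7_CTL and 7.63 without library 2 of J0_MLKL.

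Replicate numbers were checked for pairing over 9 pairs of groups and 2572 genes. Correlations of same-numbered deviations ran from -0.76 to 0.58, in 0 pairs of groups were all over 0.1, and in 0 did every library correlate best with its own number. The samples share only a number. A replicate block changed 2 of 52 member calls: Ankrd1 in J7_MLKL against J0_MLKL was not called (2.20, edgeR adjusted p 0.0733) and in J0_MLKL against J0_RIPK3 was (-1.02, 0.0449).

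Scaling shifted the median of all genes by over 0.1 in 3 contrasts: by -0.10 in J7_MLKL against J7_CTL (totals alone), by up to -0.19 in J7_MLKL against J7_RIPK3, and by -0.32 in the MLKL difference with DESeq2 size factors, where higher and lower calls were 963 and 1012 in place of 1184 and 797. In the RIPK3 difference they were 2028 and 2270, or 2481 and 1950 with DESeq2 size factors and 1542 and 2688 under the scaling of the authors. Under these scalings the members' directions held, apart from Axl in J0_RIPK3 against J0_CTL.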
